A study of Mus musculus with 8 samples.

Results

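The aryl hydrocarbon receptor axis was described from 6 genes, Ahr, Ahrr, Arnt, Tiparp, Cyp1a1 and Cyp1b1, taken as every probe set whose single symbol in the platform's probe table is one of these names. They were represented by 7 of the 25349 probe sets of the table, 2 of them for Tiparp, and by 6 of 21515 genes. The axis was chosen by measured values of these arrays, and which ones is not stated. They were taken to be the rise of Ahr in CD40-activated over naive cells, which was among the largest in an earlier look. That rise, and any change of the members that sets those 4 arrays against others or each other, is a description with no test. The p-values for LMP1 against YFP control use those 4 arrays too, through the shared estimate of the spread. If LMP1 against YFP control entered the choice as well, the p-values of the members given for it are not independent of that choice. The expression of 4 groups of mouse spleen B cells, depleted of CD43-bearing cells, was measured on 8 whole-transcript arrays, 2 biological replicates per group. LMP1 cells (LMP1flSTOP/YFPflSTOP) and YFP control cells (YFPflSTOP/+) came from female (C57BL6XBALBc) F1 mice, were both exposed to TAT-Cre, a recombinase that enters cells and removes the STOP cassette, and were both sorted for YFP after 2 days. CD40-activated cells were B6/J cells from male mice kept with an antibody to CD40 for 2 days, and naive control cells from the same kind of mice went straight into RNA extraction. The promoter that drives the LMP1 and YFP alleles, the dose of the antibody and the age of the mice are not given in the sources used here. LMP1 is a membrane protein of Epstein-Barr virus that signals without a ligand, much as CD40 does once engaged.

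AHR is a transcription factor of the bHLH-PAS family that waits in the cytosol with HSP90 and further chaperones until a small molecule binds it, for example a plant indole, a dioxin or a tryptophan breakdown product. It then moves to the nucleus, pairs with ARNT and binds DNA at the core motif GCGTG. Among the genes it switches on are Cyp1a1 and Cyp1b1, cytochrome P450 enzymes that oxidise its ligands, Ahrr, which encodes a repressor that competes for ARNT, and Tiparp, which encodes an ADP-ribosyltransferase that lowers AHR activity, so that the pathway restrains itself. In mouse spleen, marginal zone B cells are known for more Ahr than follicular B cells. C57BL/6 and BALB/c mice are known to carry different Ahr alleles, and whether the probes read both equally was not tested.

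All values are log2 levels per probe set as deposited, and a difference of 1 is a doubling. Array medians lay between 5.52 and 5.68, and the table holds no detection call, so a level below the median may be little more than background. Markers of B cells stood above the array median on every array for 7 of 7 genes measured (Cd79a, Cd79b, Ms4a1, Pax5, Ebf1, Blk and Cd22). The replicates of YFP control were more than 1 log2 apart at 950 genes and those of naive control at 364, against 14 for LMP1 and 34 for CD40-activated, so results are also given without single arrays where that changed them. The LMP1 and YFP control arrays were re-analysed from an earlier series, so between them and the other arrays the set of arrays, the cross, the sex, TAT-Cre and the sort cannot be told apart. In bulk RNA, fewer expressing cells and less RNA per cell cannot be told apart.

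The receptor gene and its targets did not have the same order of groups. Ahr was highest in CD40-activated cells and next in YFP control cells, with LMP1 and naive cells low. Tiparp, Ahrr, Cyp1a1, Cyp1b1 and the partner gene Arnt were all highest in YFP control cells, read on the brighter of the Tiparp probe sets.

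Ahr, the receptor, had log2 levels of 6.04 and 5.73 in LMP1 cells, 7.89 and 8.46 in YFP control cells, 9.47 and 9.59 in CD40-activated cells, and 5.83 and 5.30 in naive control cells. The LMP1 and naive arrays overlapped, while the CD40-activated arrays lay above both YFP control arrays and those lay above all LMP1 and naive arrays. Between 94.1% and 94.6% of probe sets were dimmer than Ahr on the CD40-activated arrays, compared with 53.4% to 58.3% on the LMP1 arrays. The gap between the mean of CD40-activated and that of YFP control cells, 1.36, crosses the sets of arrays and was given no test.

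Arnt, the partner of AHR and of the hypoxia factor HIF1A, was at 9.05 and 8.98 in LMP1 cells, 9.59 and 9.47 in YFP control cells, 8.87 and 8.84 in CD40-activated cells, and 8.75 and 8.93 in naive control cells. It was bright on all 8 arrays and its group means spanned less than 1 log2. The 2 lowest groups, CD40-activated and naive, overlapped.

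Tiparp was at 7.55 and 7.44 in LMP1 cells, 9.41 and 9.44 in YFP control cells, 8.04 and 8.50 in CD40-activated cells, and 7.64 and 7.56 in naive control cells. YFP control was the high group and no 2 of the 4 groups overlapped, although LMP1 and naive means were only 0.11 apart. The second Tiparp probe set did not show this order. It was at 3.01 and 3.25 in LMP1, 3.39 and 3.28 in YFP control, 3.73 and 3.72 in CD40-activated and 3.47 and 3.49 in naive control cells, and at most 12.4% of probe sets were dimmer than it on any array.

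Ahrr, the repressor, was at 4.37 and 4.52 in LMP1 cells, 5.20 and 5.24 in YFP control cells, 4.61 and 4.55 in CD40-activated cells, and 4.28 and 4.56 in naive control cells. Only the YFP control arrays stood clear of the rest by more than 0.5, and all 8 values were below the array median. Cyp1a1 was at 5.07 and 5.36 in LMP1 cells, 5.97 and 6.20 in YFP control cells, 5.31 and 5.42 in CD40-activated cells, and 5.28 and 5.47 in naive control cells. YFP control was again the high group and was the one in which Cyp1a1 exceeded the array median. Cyp1b1 was dim throughout, at 3.48 and 3.66 in LMP1 cells, 3.82 and 4.25 in YFP control cells, 3.26 and 3.59 in CD40-activated cells, and 3.67 and 3.58 in naive control cells. At most 16.6% of probe sets were dimmer than Cyp1b1 on any array, and among LMP1, CD40-activated and naive cells its neighbouring groups overlapped.

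**Figure D1:**
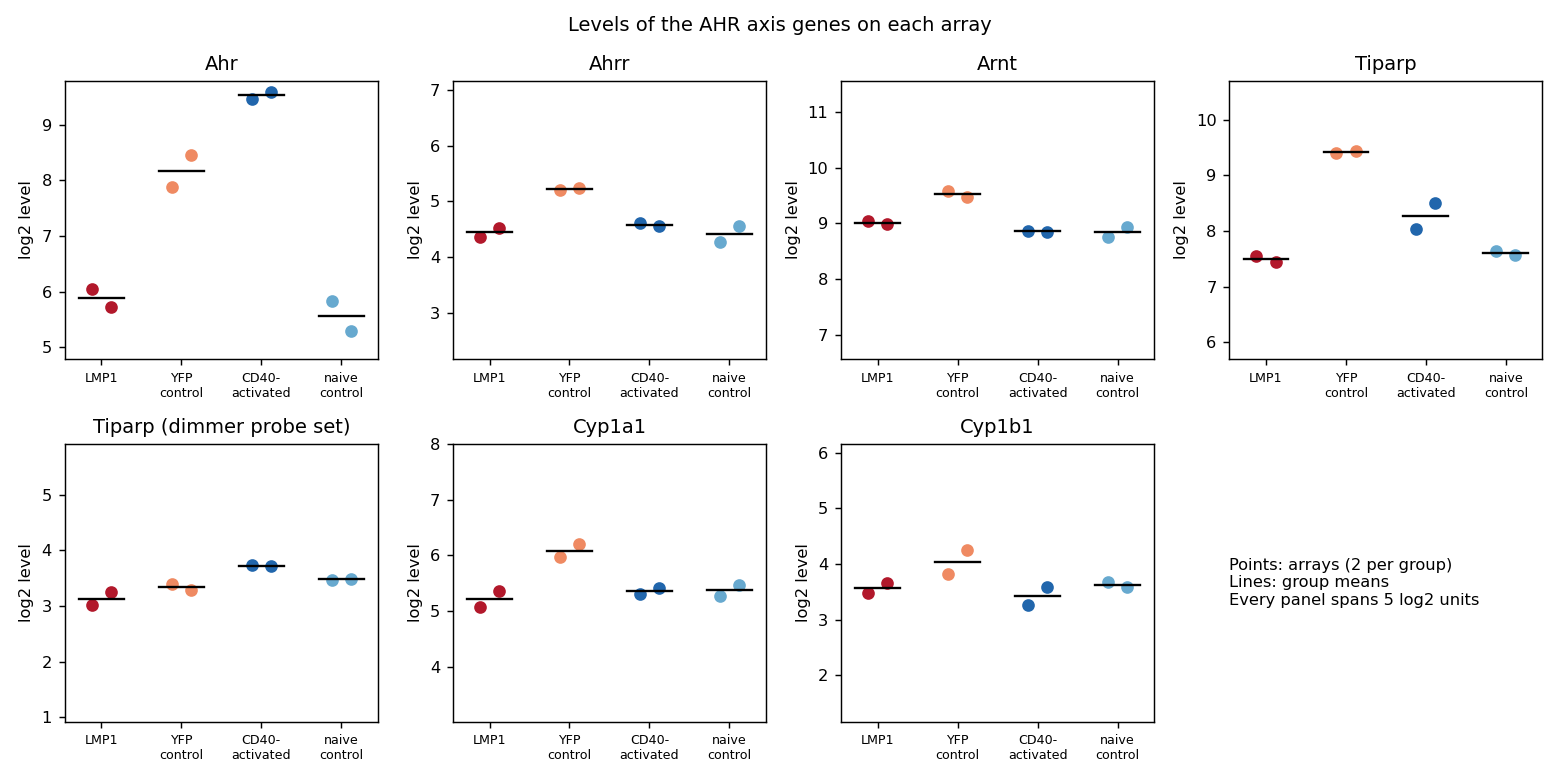
Log2 level (vertical axis) of each probe set of the 6 genes in the 4 groups (horizontal axis), with a point for each of 2 arrays per group and a line at the group mean, and with axes of equal span. Ahr is highest in CD40-activated cells at 9.47 and 9.59, while the brighter Tiparp probe set, Ahrr, Arnt, Cyp1a1 and Cyp1b1 are highest in YFP control cells.

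The sequences in front of the 3 target genes that fell most clearly with LMP1 are shown because the short core motif of AHR can be looked for in them directly. Binding of AHR was not measured, and sequence further upstream was not searched. They are the 250 bases before the RefSeq start site in GRCm38.p6, 5′ to 3′ on the strand of the gene, at chr13:74292332-74292581 on the minus strand for Ahrr, chr3:65528197-65528446 on the plus strand for Tiparp and chr9:57697363-57697612 on the plus strand for Cyp1a1. Capitals mark GCGTG, or CACGC where the motif lies on the other strand.
Ahrr: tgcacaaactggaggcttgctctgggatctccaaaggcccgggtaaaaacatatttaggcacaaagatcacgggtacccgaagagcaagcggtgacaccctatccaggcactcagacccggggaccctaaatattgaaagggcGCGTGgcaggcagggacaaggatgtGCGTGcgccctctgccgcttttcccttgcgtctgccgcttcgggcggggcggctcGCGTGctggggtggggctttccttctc
Tiparp: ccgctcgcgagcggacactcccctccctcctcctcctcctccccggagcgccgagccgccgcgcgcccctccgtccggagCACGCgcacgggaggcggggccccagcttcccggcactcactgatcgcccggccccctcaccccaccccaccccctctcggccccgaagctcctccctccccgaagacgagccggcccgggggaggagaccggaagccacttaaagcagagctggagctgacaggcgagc
Cyp1a1: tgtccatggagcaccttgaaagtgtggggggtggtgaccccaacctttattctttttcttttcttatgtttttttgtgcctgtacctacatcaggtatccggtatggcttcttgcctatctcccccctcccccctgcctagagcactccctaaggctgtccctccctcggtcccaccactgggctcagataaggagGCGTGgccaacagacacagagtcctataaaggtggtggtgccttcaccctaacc
Promoter sequences were at hand for 5 of the 6 genes, and all 5 windows held GCGTG on one strand or the other, as did 28.2% of 32851 RefSeq windows of that length. Ahrr had 3 copies, from position -107 to position -23 counted from its start site, and 8.63% of windows held at least 2. Tiparp, Cyp1a1, Arnt and Cyp1b1 had 1 copy each. The longer form TNGCGTG, which contains the core, was found in the window of Ahrr alone among the 5, where it covers the copy nearest the start site, and in 4.1% of all windows. The 5 windows held 53.6% to 75.2% G and C, and GCGTG is also one form of the core that the HIF1A and ARNT pair binds. Whether the number of copies bears on the size of a fall with LMP1 was not tested. A match describes these letters and shows no binding.

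**Figure D2:**
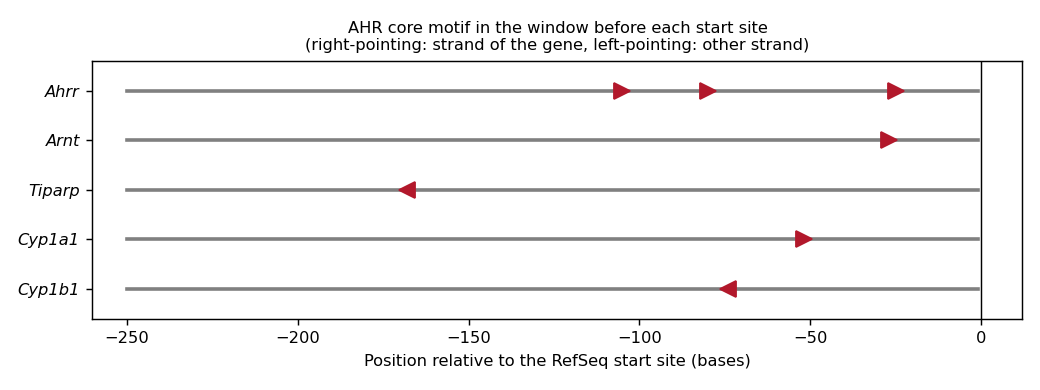
Positions of GCGTG in the 250 bases before the RefSeq start site of 5 genes (horizontal axis in bases, start site at 0), with right-pointing marks for the strand of the gene and left-pointing marks for the other strand. Ahrr has 3 marks and Arnt, Tiparp, Cyp1a1 and Cyp1b1 have 1 each.

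Setting LMP1 cells against YFP control cells asks what LMP1 altered where cross, sex, treatment and sort were shared. In LMP1 cells 5 of the 6 genes fell, 0 rose, and the arrays of LMP1 lay below those of YFP control for all 6. Of all genes, 8.31% were called lower here, 14.9% were called higher and 33.7% had LMP1 arrays below both YFP control arrays. Ahr fell by 2.29 ± 0.24 (log2 change ± SE, n = 2 arrays per group; limma adjusted p = 0.000152), a level 4.89-fold lower. Tiparp fell by 1.93 ± 0.19 on its brighter probe set (adjusted p = 8.92e-05), while the dim one differed by -0.20 ± 0.16. Cyp1a1 fell by 0.87 ± 0.18 (adjusted p = 0.00611) and Ahrr by 0.78 ± 0.17 (adjusted p = 0.00789). The fall of Arnt was the smallest of the 5, 0.52 ± 0.16 (adjusted p = 0.0431). Cyp1b1 did not pass, at -0.47 with a 95% confidence interval of -0.91 to -0.02 (adjusted p = 0.132).

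The median change of the 6 genes was -0.82, beside -0.07 over all genes. Ahr and Tiparp passed under all 15 alternative settings, and Tiparp was at -1.07 with the mean of its probe sets. The call of Arnt ended under 8 of the 15, among them array medians subtracted (adjusted p = 0.0996), only these groups in the model (adjusted p = 0.0816) and the replicate number as a block (adjusted p = 0.0617). Without LMP1 replicate 1, Ahrr (adjusted p = 0.0951) and Cyp1a1 (adjusted p = 0.0881) did not pass, which left 2 genes called, and without YFP control replicate 1 Cyp1b1 passed at -0.68 (adjusted p = 0.0293).

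Marker genes moved beside the axis, and their counts stand beside 8.31% of all genes called lower and 14.9% called higher with LMP1. Of 7 B cell markers 5 fell with LMP1, Cd22, Blk, Cd79a, Ebf1 and Cd79b, and their summed linear signal was 12822 to 13254 on LMP1 arrays and 23377 to 27319 on YFP control arrays. In LMP1 against YFP control cells, 3 of 8 monocyte and macrophage markers fell, Adgre1, Ly6c2 and Lyz2, and the summed linear signal of the list was 442 to 475 on LMP1 arrays and 697 to 1169 on YFP control arrays. On the CD40-activated arrays, where Ahr was highest, that sum was 558 to 681. Its members moved apart there: Cd68 was at 8.78 and 8.30 in CD40-activated and 6.37 and 6.32 in naive cells and was higher by 2.20, while Lyz2, Itgam and Cd14 were lower. Of 8 marginal zone genes 3 fell with LMP1, S1pr3, Dtx1 and Plac8, and the summed signal was 2942 to 3071 in LMP1, 6009 to 6282 in YFP control, 6554 to 6729 in CD40-activated and 3717 to 3963 in naive cells. Of 6 dendritic cell markers Flt3 and Zbtb46 rose, and the summed signal was 1026 to 1220 in LMP1 and 282 to 332 in YFP control cells. The part of these markers in the fall of the axis was not tested.

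The pair of CD40-activated and naive control cells asks about CD40 together with 2 days of culture. Ahr was 3.97 ± 0.24 higher in CD40-activated cells, 15.6-fold, and Tiparp 0.67 ± 0.19. These 2 of 6 genes were past the threshold and higher, where 11.0% of all genes were, and 0 were lower (6.65% of all genes). No reading is taken from that count, since this comparison was taken as the one behind the choice. The arrays overlapped for the other members, with Ahrr at 0.16 (95% confidence interval -0.22 to 0.54), Arnt at 0.02 (-0.34 to 0.37), Cyp1a1 at -0.01 (-0.41 to 0.39) and Cyp1b1 at -0.20 (-0.65 to 0.25). Tiparp was not past the threshold in 8 of 15 alternative settings, at 0.44 without CD40-activated replicate 2, the brighter of the pair, and at 0.43 when each set of arrays was quantile-normalized by itself; leaving out either LMP1 or either naive control array also ended it.

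Markers of other lymphocytes were higher on the naive arrays, where Ahr was low. Of all genes, 6.65% were called lower in CD40-activated than in naive cells and 11.0% higher. All 6 measured T cell markers were lower in CD40-activated than in naive cells, with a summed linear signal of 281 to 382 in CD40-activated and 2368 to 2849 in naive cells, and 5 of 7 NK cell and ILC markers were lower. The summed signal of 3 erythroid and platelet markers was 77 to 79 in CD40-activated and 829 to 2538 in naive cells. Of the marginal zone genes S1pr3 and Fcrl5 were higher in CD40-activated cells and Dtx1 and Plac8 lower. The part of these cells in the levels of the axis was not tested.

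**Figure D3:**
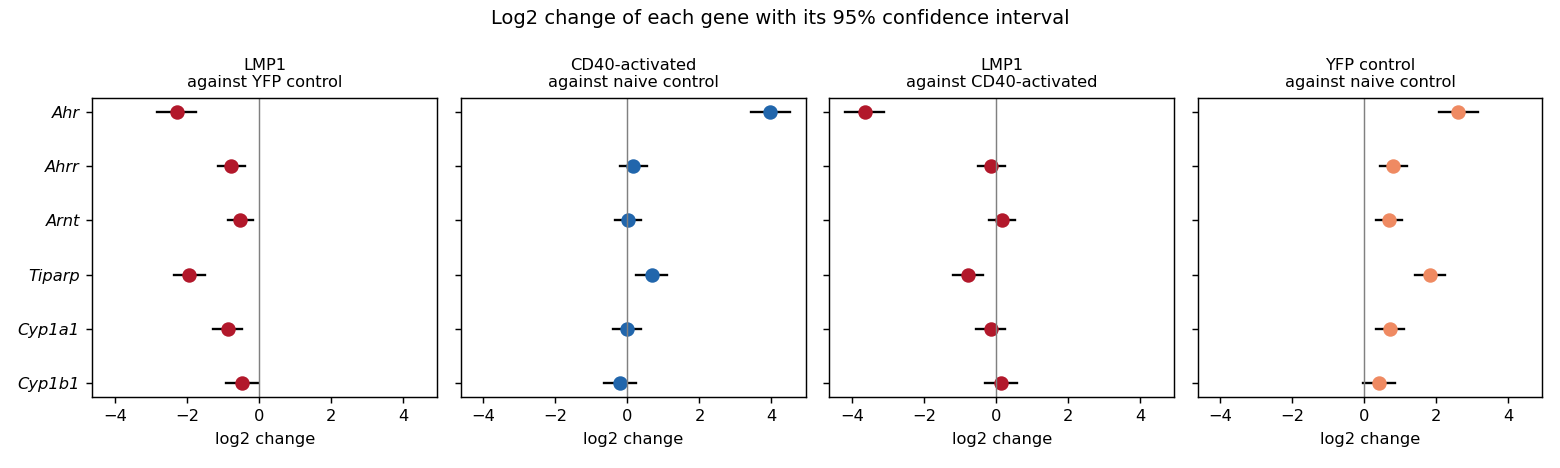
Log2 change of each of the 6 genes (points, horizontal axis) with its 95% confidence interval (lines) in 4 comparisons, the group named first over the group named second. All 6 points lie below 0 for LMP1 against YFP control and above 0 for YFP control against naive control, and with CD40 activation Ahr stands apart at 3.97. Tiparp is read on its brighter probe set.

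LMP1 cells were set against CD40-activated cells directly, as the series was designed to allow. These groups also differ in cross, sex, TAT-Cre, sort and set of arrays, which cannot be told apart from LMP1 and CD40 here. Ahr was lower in LMP1 cells by 3.65 ± 0.24 (6.04 and 5.73 in LMP1 against 9.47 and 9.59 in CD40-activated cells) and Tiparp by 0.78 ± 0.19. These 2 of 6 members were past the threshold and lower, compared with 5.17% of all genes, and 0 were higher (9.66% of all genes). No reading is taken from that count, since it uses the CD40-activated arrays of the comparison taken as the one behind the choice. The remaining genes were within 0.16 of each other in the group means, with Ahrr at -0.14 (95% confidence interval -0.51 to 0.24), Cyp1a1 at -0.15 (-0.55 to 0.25), Cyp1b1 at 0.14 (-0.30 to 0.59) and Arnt at 0.16 (-0.20 to 0.52). Without CD40-activated replicate 2 the Tiparp difference was -0.55 and not past the threshold, nor was it without either LMP1 array.

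YFP control cells were set against naive control cells, which shows what separates the controls: culture, TAT-Cre and sort, but also cross, sex and set of arrays. Here 5 of 6 members were past the threshold and higher in YFP control cells, where 10.9% of all genes were, and 0 were lower (7.59% of all genes). Ahr was higher by 2.61 ± 0.24, Tiparp by 1.82 ± 0.19 on its brighter probe set and Ahrr by 0.80 ± 0.17. Cyp1a1 was higher by 0.71 ± 0.18 and Arnt by 0.69 ± 0.16, while Cyp1b1 was at 0.41 (95% confidence interval -0.04 to 0.86). The dim Tiparp probe set was at -0.145 ± 0.163. This comparison uses the same YFP control arrays as that of LMP1 and the same naive arrays as that of CD40, so its values are no separate evidence. With only these groups in the model, or without naive control replicate 1, 2 of the 6 were past the threshold, and with the mean of its probe sets Tiparp was at 0.84. Markers moved here too: 6 of 6 T cell markers were lower in YFP control cells (summed signal 261 to 392 in YFP control and 2368 to 2849 in naive cells), as were 6 of 7 NK cell and ILC markers (262 to 339 and 1101 to 1463), 3 of 6 dendritic cell markers and 2 of 3 erythroid and platelet markers. Of the marginal zone genes S1pr3, Fcrl5 and Plac8 were higher and Cr2 lower, and of the macrophage genes Adgre1 and Cd68 were higher and Itgam lower. Their part in the levels of the axis was not tested.

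Between the LMP1 and the CD40 change, 3 of 6 members differed past the threshold with the LMP1 change lower, Ahr, Tiparp and Ahrr, where 4.12% of all genes did, and 0 differed the other way (4.20% of all genes). For Arnt the difference was -0.53 ± 0.23, for Cyp1a1 -0.86 ± 0.26 and for Cyp1b1 -0.27 ± 0.28, none past the threshold. All of them contain the comparison taken as the one behind the choice, so no reading is taken from the count.

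The genes most like Ahr over the 8 arrays were sought by the root mean square difference of log2 levels after each gene was centred on its own mean. They were Hpgds (0.28), a prostaglandin D synthase, the phosphatidylserine receptor Havcr1 (0.49), the sphingosine phosphate receptor S1pr3 (0.53), Ms4a7 (0.55), the Fc receptor-like gene Fcrl5 (0.62) and Lztfl1 (0.62), with 1 gene model without a settled name passed over. The median gene lay 1.69 from Ahr. Hpgds had mean log2 levels of 5.64 in LMP1, 8.12 in YFP control, 8.88 in CD40-activated and 5.55 in naive cells. S1pr3 and Fcrl5 are also on the marginal zone list. Dtx1, Plac8 and Cr2 of that list went with Ahr in some comparisons and not in others. With LMP1, Dtx1 changed by -2.575 and Plac8 by -3.97, the direction of Ahr. Mean log2 levels in CD40-activated and naive cells were 8.56 and 9.62 for Dtx1 and 7.07 and 8.53 for Plac8, opposite to Ahr. Cr2 was at 11.53 in CD40-activated and 10.93 in naive cells, the direction of Ahr. It was at 10.57 in LMP1 and 10.14 in YFP control cells, opposite to Ahr. Neither difference of Cr2 passed. The genes most like Tiparp were Olfr166 (0.21), Gpr155 (0.26), Slc35d2 (0.26) and Snx32 (0.26), each with its highest mean in YFP control cells, where the median gene lay 0.82 away. These genes were picked for their likeness, so their levels are a description.

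**Figure D4:**
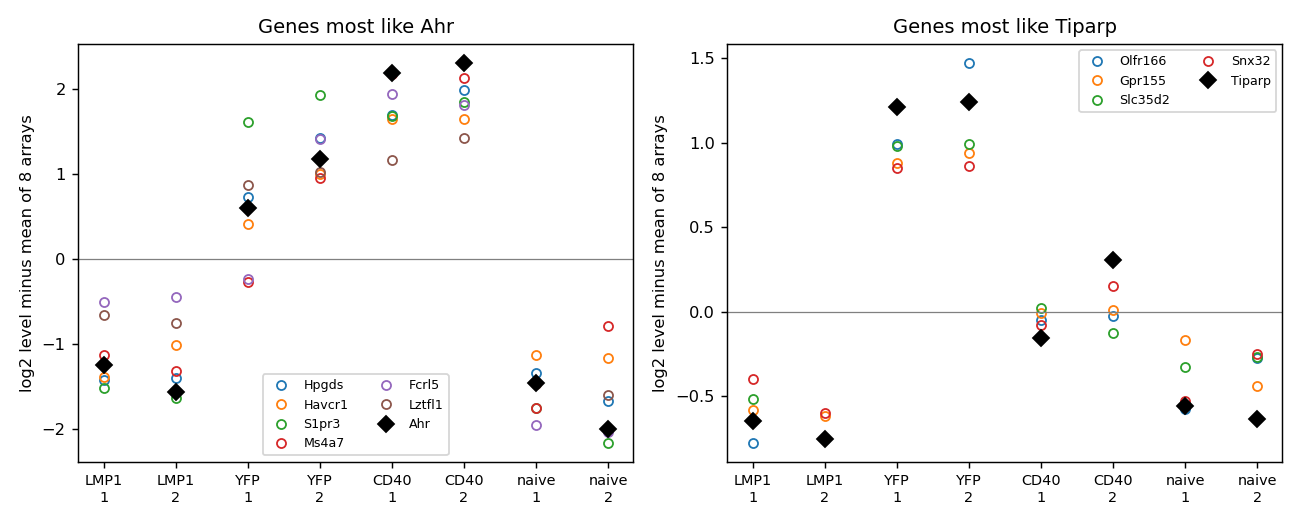
Log2 level minus the gene's mean over 8 arrays (vertical axis) on each array (horizontal axis) for Ahr with its 6 most similar genes, and for Tiparp with its 4. Hpgds follows Ahr most closely, at a root mean square difference of 0.28, and the Tiparp set is highest on both YFP control arrays.

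Other genes of the pathway were taken from lists by their role. The counts of each list stand beside 14.9% of all genes called higher and 8.31% called lower with LMP1. AHR ligands arise when tryptophan is broken down, and of 10 measured genes of that route 4 rose and 2 fell in LMP1 cells (list median 0.03, all genes -0.07). Ido1, an enzyme that opens the tryptophan ring toward kynurenine, was at 7.65 and 7.77 in LMP1 cells and 4.96 and 4.98 in YFP control cells, a rise of 2.74 ± 0.25 (adjusted p = 6.95e-05). Kyat3, a kynurenine aminotransferase, rose by 1.56, and so did Kynu (1.27) and Ido2 (0.96), both named after their values were seen. Kmo, which hydroxylates kynurenine, was at 8.49 and 8.27 in LMP1 cells and 10.84 and 10.49 in YFP control cells and fell by 2.29 ± 0.18 (adjusted p = 3.16e-05), and Haao, a later enzyme of the route, fell by 0.73. Kyat1 did not pass (0.15).

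With CD40 activation 3 of these 10 genes rose and 1 fell (list median 0.00, all genes -0.05), where 11.0% of all genes rose and 6.65% fell. Kynu rose by 1.21 ± 0.17 and Kmo by 0.94 ± 0.18, Haao fell by 1.01 ± 0.21, and Ido1 did not pass, at -0.17 (95% confidence interval -0.74 to 0.39), nor did Aadat (-0.48). Kyat3, named after its values were seen, was the third that rose, by 0.67. The call of Kmo ended without CD40-activated replicate 2 (adjusted p = 0.0667), and that of Haao ended without that array (adjusted p = 0.075), without CD40-activated replicate 1 (adjusted p = 0.0648) and without naive control replicate 1 (adjusted p = 0.0502). The difference between the LMP1 and the CD40 change was past the threshold for Ido1, at 2.92 ± 0.36, and for Kmo, at -3.23 ± 0.26. Of 3 tryptophan transporter genes 2 rose with LMP1, Slc7a5 by 2.56 and its partner Slc3a2 by 1.01, and Slc7a8 did not pass with LMP1 (-0.48) or with CD40 (-0.64). With CD40, Slc7a5 rose by 1.27, a call that ended under 7 of the 15 settings, and was at 0.57 without naive control replicate 2.

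**Figure D5:**
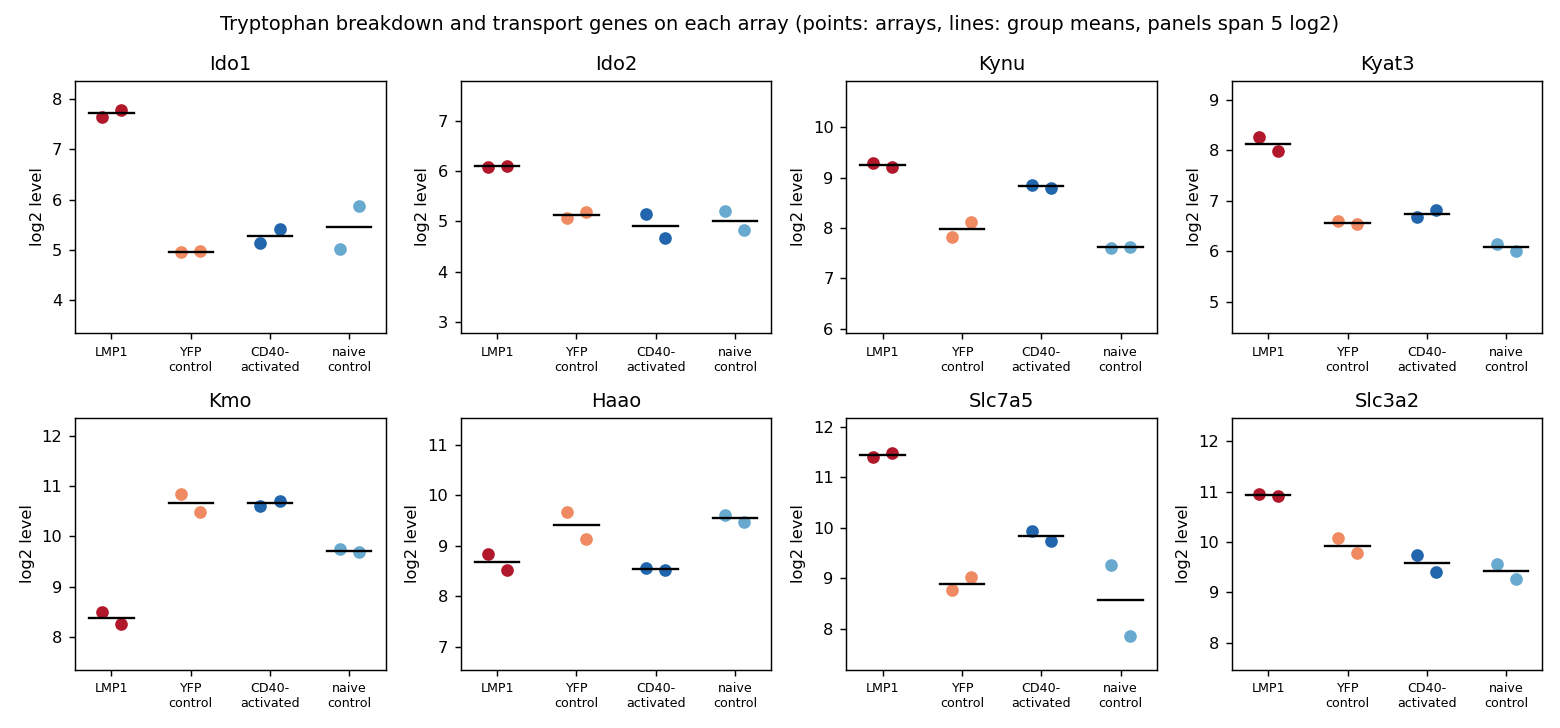
Log2 level (vertical axis) of 6 tryptophan breakdown genes and 2 tryptophan transporter genes in the 4 groups (horizontal axis), with a point per array and a line at the mean. Ido1 is high in LMP1 cells at 7.65 and 7.77, and Kmo is lowest there at 8.49 and 8.27.

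Of 10 measured further targets credited to AHR, 2 rose and 2 fell with LMP1 (list median -0.10), where 14.9% of all genes rose and 8.31% fell. No reading is taken from these counts. Nfe2l2, which encodes the antioxidant regulator NRF2, was at 8.84 and 8.57 in LMP1 cells and 9.95 and 10.34 in YFP control cells and fell by 1.44 ± 0.19, a fall that passed under all 15 settings. Il10, an anti-inflammatory cytokine, was at 3.76 and 3.88 in LMP1 cells and 4.84 and 5.88 in YFP control cells. It fell by 1.54 ± 0.30, or by 1.02 without YFP control replicate 2 and by 2.06 without YFP control replicate 1. Il10 was dim, and YFP control replicate 2 was the only array on which it exceeded the array median. Slc7a5 and Scin, an actin-severing protein named after its values were seen, were the ones that rose. Nqo1, a quinone reductase of the classical AHR battery, was at 0.02 (95% confidence interval -0.45 to 0.48) and dim on all arrays. Aldh3a1 did not pass (-0.29). With CD40, 2 of the 10 rose, Slc7a5 and Nfe2l2 (0.72 ± 0.19), and 0 fell, with Il22 at -0.46 without passing. Of all genes, 11.0% rose and 6.65% fell with CD40. The Nfe2l2 call ended under 5 of the 15 settings.

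Of the genes whose products work with AHR, the chaperone Hsp90aa1 was at 9.19 and 8.92 in LMP1 cells and 7.78 and 7.78 in YFP control cells, a rise of 1.27 ± 0.17, and did not pass with CD40 (-0.14). It was the single chaperone of 4 listed that was measured. Among 9 coactivators and corepressors 5 fell with LMP1 and 0 rose (list median -0.64), where 8.31% of all genes fell and 14.9% rose. The falls were led by Rb1 (-1.57), Ep300 (-1.18) and Ncoa3 (-0.95), while Ncoa2 did not pass (-0.50). With CD40, 0 of the 9 passed in limma, the largest change being that of Ncoa1 (0.40), where 11.0% of all genes rose and 6.65% fell. Of 13 other bHLH-PAS factors, the family of AHR and ARNT, 1 fell with LMP1, the clock gene Arntl (-0.93; adjusted p = 0.0528 without LMP1 replicate 2), and 0 passed with CD40, with Npas4 at 0.46. Hif1a, the other main partner of ARNT in lymphocytes, was at -0.70 ± 0.23 with LMP1 (adjusted p = 0.052) and passed under 4 of the 15 settings. It was at -1.07 without YFP control replicate 1, at -0.33 without YFP control replicate 2 (adjusted p = 0.206) and at -0.07 with the mean of its probe sets (adjusted p = 0.889).

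Most hypoxia targets of ARNT and HIF1A rose with LMP1, while Arnt itself fell, a call that ended under 8 of the 15 settings. Over all genes, 14.9% rose and 8.31% fell with LMP1, and 11.0% rose and 6.65% fell with CD40. In LMP1 cells 9 of 12 rose and 1 fell (list median 1.04, all genes -0.07), with the peptide hormone Adm at 2.58 ± 0.22, the oxidoreductase Ero1a at 2.10 ± 0.18 and Vegfa at 1.46 ± 0.29 (adjusted p up to 0.0509 over the alternatives), while Egln3 did not pass (0.30). The one that fell was Ndrg1 (-1.16), named because it stands alone. With CD40 activation 2 of 12 rose and 2 fell (list median -0.01), with Adm at 2.54 ± 0.22, Pdk1 at -0.78 and P4ha1 at -0.78, whose calls ended under 3 and 6 of the 15 settings, and Egln3 did not pass (-0.51). A list of 15 further genes held other ADP-ribosyltransferases, the kind of enzyme that Tiparp encodes, together with hydrolases that are not of its family. Of these genes 2 rose and 4 fell with LMP1 (list median -0.20). Parp4 (-1.28), Parp6 (-1.14) and Parp8 (-0.99) were in front, and Parp16 did not pass (-0.39). With CD40, 0 of the 15 passed in limma, the largest change being that of Parp16 (-0.86). On its brighter probe set Tiparp fell by 1.93, and with the mean of its probe sets, the second of them dim, by 1.07. The values given for the other genes of the list are from the brightest probe set of each.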

How the data were processed

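Levels of mouse spleen B cell RNA on 8 arrays were used as deposited: log2 expression per probe set, as made by the authors. The submitters' processing notes name RMA, a method that usually corrects background, quantile-normalizes and summarises probes, and the oligo package; versions are not given in the sources used here. RNA was labelled with the WT PLUS kit, per the labels' protocols, and the genome build is not given in the sources used here. Probe sets with 1 symbol were kept (22225 of 25349; 616 had several and 2508 none), and the brightest stood for a gene. A single limma model (version 3.58.1; R 4.3.3) held a mean for each of the 4 groups and all 21515 genes, with residual and prior degrees of freedom of 4 and 5.75. Two-sided p-values took Benjamini-Hochberg adjustment across every gene, with 0.05 as the threshold. Errors beside changes are model SEs, and the number of arrays limits the precision. The procedure was tested on simulated data. The labels call the replicates biological but do not say that they came from separate mice, so p-values measure the spread between these arrays. Members, lists and tests were chosen with earlier results of these arrays known, so no test here is independent of them. Which measured values chose the members is not stated. CD40-activated against naive control was taken as that comparison, and the members' p-values are given for LMP1 against YFP control, which shares no array with it. Pathway genes named were, per list and comparison, up to 3 called and 1 not called with the largest change, with Hif1a, Nqo1, Slc7a5 and Ido1 in any case (a further gene so listed was not analysed here), described for LMP1 against YFP control and CD40-activated against naive control, and the genes most like Ahr and Tiparp. Of 84 genes on 8 pathway lists 72 were measured, and the others were not analysed here. Promoter windows came from RefSeq (GRCm38.p6). Alternatives were a robust eBayes with trend, a model of the compared groups alone, dim genes left out, quantile normalization within each set, array medians subtracted, the mean of a gene's probe sets, a replicate block and leaving out each array.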

Additional observations from a re-analysis of the deposited data

Results flagged for a closer look

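The changes with LMP1 and with CD40 activation differed past the threshold for 3 of the 6 members, where 4.12% of all genes were called in that direction. No reading is taken from that count. For Ahr the LMP1 change minus the CD40 change was -6.26 ± 0.35 on the log2 scale, with a fall in one setting (6.04 and 5.73 in LMP1 against 7.89 and 8.46 in YFP control cells) and a rise in the other (9.47 and 9.59 in CD40-activated against 5.83 and 5.30 in naive cells). For Tiparp it was -2.6 ± 0.26, and for Ahrr -0.94 ± 0.24. With the mean of its probe sets the Tiparp difference was -1.52. These values contain the comparison taken as the one behind the choice of the axis, and they set cultured controls against uncultured ones, so they are given as a description. The Ahrr difference was under the threshold in 6 of 15 alternative settings, at -0.80 without naive control replicate 1, with the replicate block, and without either LMP1 or either CD40-activated array.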

How the results depend on the processing

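Under 15 alternatives there were 851 tested values and counts, of which 767 kept their direction and side of the threshold (counts, within 1.5 times), 64 were weaker, 20 stronger and 0 reversed. Of 356 changes of members given as descriptions 327 moved by less than the replicates' spread, 29 by more and 0 called ones reversed, while 24 were no longer past the threshold and 3 newly past it. With only the groups compared in the model, the genes called were 6360 for LMP1 against CD40-activated (3191 with all groups) and 1537 for YFP control against naive control (3986), and the members past the threshold were 2 of 5 for YFP control against naive control and 1 of 2 for CD40-activated against naive control. The last count was also 1 with quantile normalization within each set and with the mean of a gene's probe sets. Leaving out 1 array gave 2647 to 7090 genes for LMP1 against YFP control (4995 in all) with 2 to 5 members lower, 1576 to 5631 for CD40-activated against naive control (3803) with 1 to 2 higher, 1275 to 4735 for LMP1 against CD40-activated with 1 to 2 lower, 2695 to 5955 for YFP control against naive control with 2 to 6 higher, and 707 to 4199 for the difference of the changes (1790). The share of called genes that were higher was 64.2% for LMP1 against YFP control, 53.4% with quantile normalization within sets and 71.3% with medians subtracted, and 62.4%, 52.9% and 73.3% for CD40-activated against naive control. Deviations of same-numbered arrays correlated at -0.102 to 0.074 between groups, so no deviation shared by number was visible. Whether same-numbered samples were prepared together is not stated in the labels, and these values cannot show it either way. With the replicate block the genes called were 4923, 3659, 3036, 3807 and 1672 in the order of comparisons above, and Arnt for LMP1 against YFP control (adjusted p = 0.0617) and Ahrr in the difference were lost. Crossing the numbers of LMP1 and CD40-activated in the block, chosen after seeing the data, gave 2994 genes. With 2 arrays per group and no detection calls, small changes of the dim Ahrr, Cyp1a1 and Cyp1b1 probe sets could not be resolved.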
